A study of Saccharomyces cerevisiae with 4 samples.

Results

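The genes described here encode the 5 subunits of the budding yeast Paf1 complex (PAF1, CTR9, CDC73, RTF1 and LEO1), the ubiquitin-conjugating enzyme Rad6 with its ligase Bre1 and their partner Lge1, and the histone H3 methyltransferases Set2 and Dot1. They were chosen by name, and all 10 were found among the 6697 genes of the deposited table. RNA of Saccharomyces cerevisiae was sequenced in 2 libraries of a wild type (WT) and 2 libraries of a strain with 9 copies of the Myc epitope at the N-terminal end of Swd2 (9Myc-Swd2); the design text calls the pair isogenic. Cultures of both strains in the rich medium YPD were kept at 30 °C and collected at an OD600 of 1.0. The promoter that drives tagged SWD2, the marker used to make the strain, the mating type and the number of clones are not stated in the labels. The labels do not say whether a group's libraries came from separate cultures. The p-values therefore measure the spread between these samples alone, which may be technical.

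The Paf1 complex travels with RNA polymerase II along transcribed genes. Its subunit Rtf1 stimulates Rad6 and Bre1 to attach ubiquitin to histone H2B, and this mark is needed for full methylation of histone H3 by Set1 (in COMPASS, of which Swd2 is a subunit) and by Dot1. Set2 methylates histone H3 on the bodies of transcribed genes, and its activity depends on the Paf1 complex and on the phosphorylated polymerase.

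Libraries held 7849193 to 8388090 reads assigned to genes, and each of the 10 genes had between 433 and 4862 reads in every library. Values are the authors' normalized read counts, in which reads were divided by 1 size factor per library. Each fold change divides 9Myc-Swd2 by WT, on the scale of log2(normalized count + 1), and genes are called at a limma-trend adjusted p under 0.05. SWD2 itself rose from 343 ± 11.5 to 1025 ± 78.9 normalized counts (SD, n = 2 each). Of 342 tested genes on chromosome XI, where SWD2 lies, 310 (90.6%) were higher in 9Myc-Swd2. The median log2 fold change was 0.90 on that chromosome and -0.02 off it. Of the 10 genes 0 lie on that chromosome. Their calls were the same when its genes were left out of the fit, which cannot alter their fold changes. With size factors taken without its genes, 3 of the 10 fell and 1 rose. The log2 fold changes were then -0.57 for LEO1, -0.39 for PAF1 and 0.23 for LGE1. Summed normalized counts were 818 to 960 (WT) and 1255 to 1309.5 (9Myc-Swd2) for 7 marker genes of mating type a, and 11212 to 11805 and 9540 to 10522 for 4 of mating type alpha, with no marker at 0 in any library. Of the a markers, STE6 on chromosome XI rose from 476 to 780 normalized counts (means). MFA1 (16.8 to 51.3) and AGA2 (16.8 to 42.7) rose too, and the other 4 did not pass. Of the alpha markers, MF(ALPHA)2 (651 to 404) and SAG1 (2278 to 1985) fell, and the other 2 did not pass. The part of the marker genes in the results was not tested.

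LEO1, PAF1 and RTF1 fell in 9Myc-Swd2, and LGE1 rose. The other 6 genes did not pass the threshold. The 4 calls make up 40.0% of the 10 genes, and over all 6503 genes tested 43.7% were called (22.3% higher and 21.4% lower), so the share called among these genes is near that of the whole table. With libraries scaled to total counts in place of size factors, 0 of the 10 genes rose and 4 fell, and all genes split into 1185 higher and 1721 lower, against 1448 and 1393. In 8 of the 10 genes both 9Myc-Swd2 libraries lay below both WT libraries, in LGE1 both lay above, and in SET2 the groups overlapped; over all genes tested the groups did not overlap in 71.6%, and 35.6% were separated with 9Myc-Swd2 lower. The median log2 fold change of the 10 genes was -0.14, against 0.00106 over all genes tested. Off chromosome XI, where all 10 lie, that median was -0.02, and 1138 of 6161 genes rose and 1391 fell. In RNA from whole cultures, fewer cells expressing a gene and less RNA per cell cannot be told apart.

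**Figure D1:**
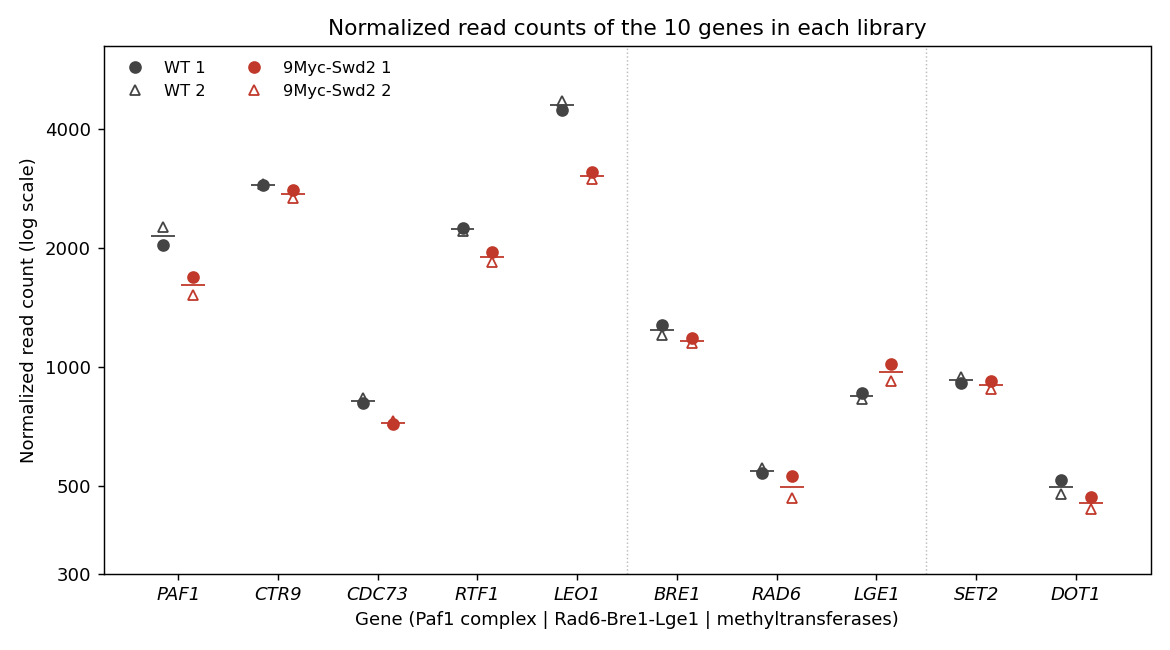
Normalized read counts (log scale) of the 10 genes in each of the 4 libraries, WT in grey and 9Myc-Swd2 in red, with circles for replicate 1, triangles for replicate 2 and a bar at each group mean. LEO1 shows the widest gap, from 4487 and 4726 in WT to 3112 and 2989 in 9Myc-Swd2, and only in SET2 do the groups overlap.

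LEO1 had the highest level of the 10 genes, also per length. Divided by coding length, its normalized count was 3302 ± 121 per kb in WT, followed by PAF1 (1608 ± 119), RTF1 (1329.96 ± 18.6), RAD6 (1054 ± 24.6), CTR9 (895 ± 5.57), LGE1 (844 ± 21.3), CDC73 (696 ± 16.8), BRE1 (589.8 ± 23.0), SET2 (421 ± 10.1) and DOT1 (284 ± 16.1). In WT the ranges of no 2 neighbours in this order overlapped. The order in 9Myc-Swd2 differed in that LGE1 (972 ± 68.9 per kb) stood before both RAD6 (958 ± 85.5) and CTR9 (848 ± 26.6). The range of CTR9 lay below those of LGE1 and RAD6, while the ranges of LGE1 and RAD6 overlapped. Those of PAF1 (1203 ± 88.6 per kb) and RTF1 (1135 ± 47.2) overlapped too.

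Within the Paf1 complex, 3 of 5 genes fell, 0 rose and 2 did not pass, with a median log2 fold change of -0.23. Over all genes tested 21.4% fell and 22.3% rose, with a median of 0.00106. LEO1 (YOR123C, R64 chromosome XV, 553176 to 554570, minus strand, 1 exon) encodes a subunit that binds RNA and histones together with Paf1. It stood at 4487 and 4726 normalized counts in WT and at 3112 and 2989 in 9Myc-Swd2. Every 9Myc-Swd2 value was thus below every WT value, and the libraries of a group differed by at most 0.07 on the log2 scale. The log2 fold change was -0.59 ± 0.07 (SE), which is a level 0.662 times that of WT (95% interval 0.599 to 0.732), with a limma-trend adjusted p of 1.8e-06. In the distribution of all tested genes this change stood at percentile 5.52 from the lowest.

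PAF1 (YBR279W, chromosome II, 761257 to 762594, plus strand, 1 exon) encodes the subunit that gave the complex its name and that pairs with Leo1. It stood at 2039.6 and 2265 normalized counts in WT and at 1694 and 1526 in 9Myc-Swd2. The groups did not overlap, although the libraries within each differed by 0.15 on the log2 scale. PAF1 fell by 0.42 ± 0.07 (SE) on the log2 scale, to 0.748 times the WT level (95% interval 0.671 to 0.835, limma-trend adjusted p = 0.000218). LEO1 and PAF1 passed the threshold under all 17 alternative settings tried.

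RTF1 (YGL244W, chromosome VII, 41498 to 43174, plus strand, 1 exon) encodes the subunit that stimulates ubiquitination of histone H2B. Its normalized counts were 2252 and 2208 in WT and 1959 and 1847 in 9Myc-Swd2. RTF1 fell by 0.23 ± 0.07 (SE) on the log2 scale, to 0.853 times the WT level (95% interval 0.773 to 0.941, limma-trend adjusted p = 0.00991). The RTF1 call was lost when limma was run with no trend (adjusted p = 0.0753). It was also lost without WT 1 (log2 fold change -0.22, limma adjusted p = 0.0974) and without WT 2 (-0.24, limma adjusted p = 0.0670), with a fold change close to that of all libraries. In every fit that leaves out a library, here and for the genes that follow, 1 group has a single library, which is assumed to vary like the other group.

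CDC73 (YLR418C, chromosome XII, 956914 to 958095, minus strand, 1 exon) encodes a subunit that binds the phosphorylated polymerase and Spt5. It stood at 809 and 837 normalized counts in WT and at 717 and 731 in 9Myc-Swd2. The groups did not overlap, but its log2 fold change of -0.18 ± 0.07 (SE) did not pass (limma-trend adjusted p = 0.0541). It passed under 5 of the 17 alternatives, among them scaling to total counts (-0.24, limma adjusted p = 0.0150) and quantile normalization (-0.25, limma adjusted p = 0.0162).

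CTR9 (YOL145C, chromosome XV, 49555 to 52788, minus strand, 1 exon) encodes the largest subunit, the scaffold on which the others assemble. Its normalized counts were 2882 and 2907 in WT and 2803 and 2682 in 9Myc-Swd2. These groups lie close together without overlapping, with a log2 fold change of -0.08 ± 0.07 (SE, 95% interval -0.22 to 0.06, limma-trend adjusted p = 0.365).

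**Figure D2:**
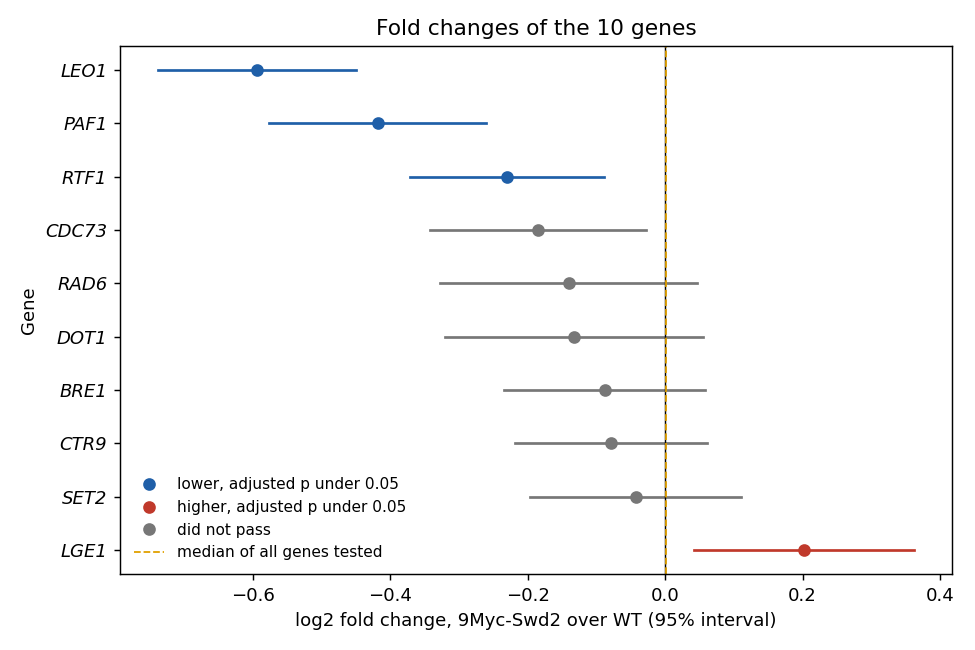
Log2 fold change of each of the 10 genes, 9Myc-Swd2 over WT, as points with 95% intervals from limma-trend, in blue (lower), red (higher) or grey (did not pass). LEO1 (-0.59) and PAF1 (-0.42) stand farthest from 0, and LGE1 (0.20) is the one gene above it.

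The share of each gene in the summed level of the complex was set out by library. The sum of normalized counts per kb over the 5 genes was 7831 ± 244 in WT and 5985 ± 216 in 9Myc-Swd2 (SD, n = 2 each). LEO1 made up 42.0% and 42.3% of that sum in the WT libraries and 36.3% and 36.7% in the 9Myc-Swd2 libraries. CTR9 made up 11.6% and 11.2% in WT and 14.1% and 14.2% in 9Myc-Swd2. The share of PAF1 overlapped between the groups, at 19.9% and 21.1% in WT and 20.6% and 19.6% in 9Myc-Swd2.

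Set against CTR9 in the same library, which needs no size factor, the level of LEO1 per length was 3.61 and 3.77 times that of CTR9 in WT and 2.57 and 2.58 times in 9Myc-Swd2. The ratio of PAF1 to CTR9 was 1.71 and 1.88 in WT and 1.46 and 1.38 in 9Myc-Swd2. For RTF1 it was 1.51 and 1.46 in WT and 1.35 and 1.33 in 9Myc-Swd2, and for CDC73 0.768 and 0.788 in WT and 0.6996 and 0.746 in 9Myc-Swd2. None of these 4 ratios overlapped between the groups. CTR9 fell least of the complex (log2 fold change -0.08), so the common direction of these 4 ratios follows from the choice of reference. With 2 libraries a group an exact two-sided permutation test gives 0.333 for each, which is the smallest p it can give, so a difference between subunits is not shown by a test here.

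**Figure D3:**
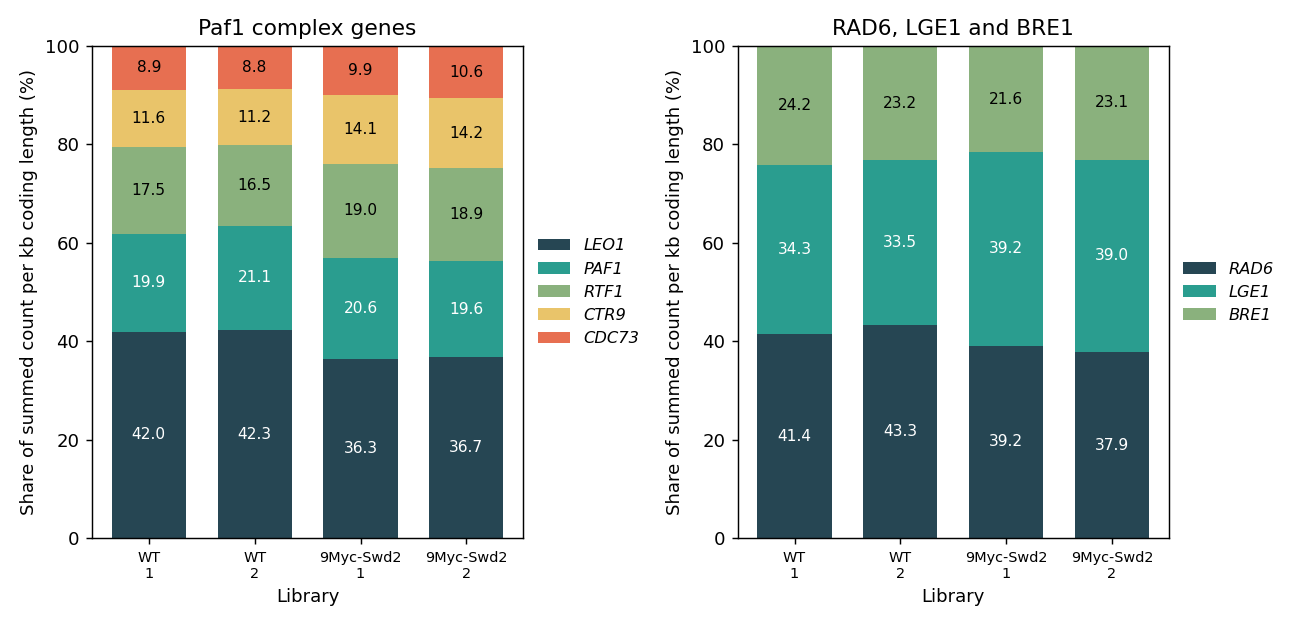
Share of each gene in the summed normalized count per kb of coding length, in percent, for the 5 Paf1 complex genes (left) and for RAD6, LGE1 and BRE1 (right), as stacked bars for the 4 libraries. The LEO1 share is 42.0% and 42.3% in WT and 36.3% and 36.7% in 9Myc-Swd2, and the LGE1 share is 34.3% and 33.5% in WT and 39.2% and 39.0% in 9Myc-Swd2.

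The DNA upstream of the 5 Paf1 complex genes is shown because 3 of them passed the threshold and 2 did not. A difference between their fold changes was not shown by a test. Each window runs from base 300 to base 51 before the start codon, in R64 coordinates, read 5′ to 3′ on the strand of the gene. Capitals mark matches on either strand to 7 motifs.
LEO1, chrXV:554621-554870, minus strand: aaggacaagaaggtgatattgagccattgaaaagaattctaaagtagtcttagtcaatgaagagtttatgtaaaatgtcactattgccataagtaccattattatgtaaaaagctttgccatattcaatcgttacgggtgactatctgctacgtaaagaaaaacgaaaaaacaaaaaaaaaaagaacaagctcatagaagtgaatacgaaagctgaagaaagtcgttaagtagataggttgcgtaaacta
PAF1, chrII:760957-761206, plus strand: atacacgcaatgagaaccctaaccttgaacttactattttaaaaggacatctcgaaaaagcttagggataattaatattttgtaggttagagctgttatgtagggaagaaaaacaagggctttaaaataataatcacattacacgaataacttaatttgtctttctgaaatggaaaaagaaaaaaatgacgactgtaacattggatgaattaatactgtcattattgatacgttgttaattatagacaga
RTF1, chrVII:41198-41447, plus strand: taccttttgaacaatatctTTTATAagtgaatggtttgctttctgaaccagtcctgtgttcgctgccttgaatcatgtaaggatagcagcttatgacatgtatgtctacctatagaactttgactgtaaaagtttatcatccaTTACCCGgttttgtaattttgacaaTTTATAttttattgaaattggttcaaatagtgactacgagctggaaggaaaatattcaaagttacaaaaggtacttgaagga
CDC73, chrXII:958146-958395, minus strand: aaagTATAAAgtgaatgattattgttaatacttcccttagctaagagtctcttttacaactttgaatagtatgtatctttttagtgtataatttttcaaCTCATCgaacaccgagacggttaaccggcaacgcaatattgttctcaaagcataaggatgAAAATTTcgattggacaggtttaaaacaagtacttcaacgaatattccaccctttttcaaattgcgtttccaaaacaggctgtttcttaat
CTR9, chrXV:52839-53088, minus strand: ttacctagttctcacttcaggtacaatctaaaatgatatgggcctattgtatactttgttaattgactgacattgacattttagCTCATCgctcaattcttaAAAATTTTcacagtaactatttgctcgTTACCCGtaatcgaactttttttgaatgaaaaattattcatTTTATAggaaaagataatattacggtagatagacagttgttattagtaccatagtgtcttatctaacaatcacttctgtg

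Among the motifs searched, the PAC core (GATGAG) is common before ribosome biogenesis genes. The RRPE core, spelled AAAATTT, is common there too. The general regulatory factor Reb1 binds TTACCCG, and the amino acid starvation factor Gcn4 binds sites with the core TGACTC. The stress response element, bound by Msn2 and Msn4, is AGGGG. The TATA box was searched as TATAAA. The cell cycle factor Mbp1 binds sites with the core ACGCG. The windows of LEO1 and PAF1 held none of these letters, and the first 47 bases of the LEO1 window lie in UBP2, the next gene. RTF1 held a Reb1 match at bases 157 to 151 before the start codon and 2 TATA matches. CTR9 and CDC73 each held a PAC core, an RRPE core and a TATA match, and CTR9 also a Reb1 match. The 2 RRPE matches in CTR9, 1 on each strand, overlap. Over the same window of 6001 nuclear protein-coding genes, 17.8% held the PAC core, 22.2% the RRPE core, 7.85% the Reb1 site, 6.83% the Gcn4 site, 19.2% the stress response element, 43.1% the TATA box and 14.3% the Mbp1 core. A match is a description of the letters and shows no binding.

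Of the 3 genes for ubiquitination of H2B, LGE1 rose and RAD6 and BRE1 did not pass. LGE1 (YPL055C, chromosome XVI, 453992 to 454990, minus strand, 1 exon) encodes a partner of Bre1 that is needed for normal H2B ubiquitination. It stood at 858 and 828 normalized counts in WT and at 1019.7 and 922 in 9Myc-Swd2. The groups did not overlap, and 9Myc-Swd2 1 stood 0.14 above 9Myc-Swd2 2 on the log2 scale. The log2 fold change was 0.20 ± 0.08 (SE), a level 1.15 times that of WT (95% interval 1.03 to 1.29, limma-trend adjusted p = 0.0397).

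The LGE1 call rests on the setting. It passed under 7 of the 17 alternatives, edgeR's quasi-likelihood test among them (adjusted p = 0.0348), and not with DESeq2 (adjusted p = 0.147) or when libraries were scaled to total counts (log2 fold change 0.14, limma adjusted p = 0.152). Without WT 1 the log2 fold change was 0.23 (limma adjusted p = 0.114), and without WT 2 it was 0.18 (limma adjusted p = 0.239). Without 9Myc-Swd2 1 it was 0.13 (limma adjusted p = 0.232), over 1.5 times smaller than with all libraries, and LGE1 passed in none of these 3 fits. In the authors' deposited table, not a separate check from DESeq2, LGE1 has a log2 fold change of 0.20 with an adjusted p of 0.1502. That table calls 3 of the 10 genes, LEO1 (-0.59), PAF1 (-0.42) and RTF1 (-0.23), and 33.3% of the 6154 genes to which it gives an adjusted p.

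Of the 10 genes, LGE1 and SET2 held a stress response element match, and SET2 did not pass (log2 fold change -0.04, limma-trend adjusted p = 0.666). The window upstream of LGE1 is given because LGE1 alone rose, with its stress response element match in capitals.
LGE1, chrXVI:455041-455290, minus strand: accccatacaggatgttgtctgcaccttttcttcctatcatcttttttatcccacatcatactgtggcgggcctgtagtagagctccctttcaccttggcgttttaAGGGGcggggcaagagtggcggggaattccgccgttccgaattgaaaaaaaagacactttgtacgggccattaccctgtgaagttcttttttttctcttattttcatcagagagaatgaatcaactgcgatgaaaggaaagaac

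RAD6 (YGL058W, chromosome VII, 393986 to 394504, plus strand, 1 exon) encodes the ubiquitin-conjugating enzyme, which also serves other ligases. It stood at 538 and 556 normalized counts in WT and at 528 and 466 in 9Myc-Swd2. The 2 values of 9Myc-Swd2 stood farther apart (0.18 on the log2 scale) than 9Myc-Swd2 1 stood from WT 1, and the log2 fold change was -0.14 ± 0.09 (SE, 95% interval -0.33 to 0.05, limma-trend adjusted p = 0.217). BRE1 (YDL074C, chromosome IV, 324047 to 326149, minus strand, 1 exon), the gene of the RING ligase, had 1274 and 1206 normalized counts in WT and at 1181 and 1151 in 9Myc-Swd2. Its groups did not overlap, and its log2 fold change of -0.09 ± 0.07 (SE, 95% interval -0.24 to 0.06, limma-trend adjusted p = 0.327) did not pass. The summed level per kb of these 3 genes was 2488 ± 19.7 in WT and 2484 ± 165 in 9Myc-Swd2 (SD, n = 2 each), while the LGE1 share of it was 33.9% ± 0.588 in WT and 39.1% ± 0.183 in 9Myc-Swd2.

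Neither methyltransferase gene passed the threshold. SET2 (YJL168C, chromosome X, 102227 to 104428, minus strand, 1 exon) had 912 and 944 normalized counts in WT and at 924 and 878 in 9Myc-Swd2. The groups overlap in part, since 9Myc-Swd2 1 lies between the WT libraries and 9Myc-Swd2 2 below both, with a log2 fold change of -0.04 ± 0.07 (SE, 95% interval -0.20 to 0.11, limma-trend adjusted p = 0.666). DOT1 (YDR440W, chromosome IV, 1342493 to 1344241, plus strand, 1 exon), the lowest of the 10 genes per length, had 517 and 477 normalized counts in WT and at 469.998 and 437 in 9Myc-Swd2. Its groups are separated by less than the gap between its WT libraries, and its log2 fold change was -0.13 ± 0.09 (SE, 95% interval -0.32 to 0.06, limma-trend adjusted p = 0.246). A p that misses the threshold does not show that these levels were equal.

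**Figure D4:**
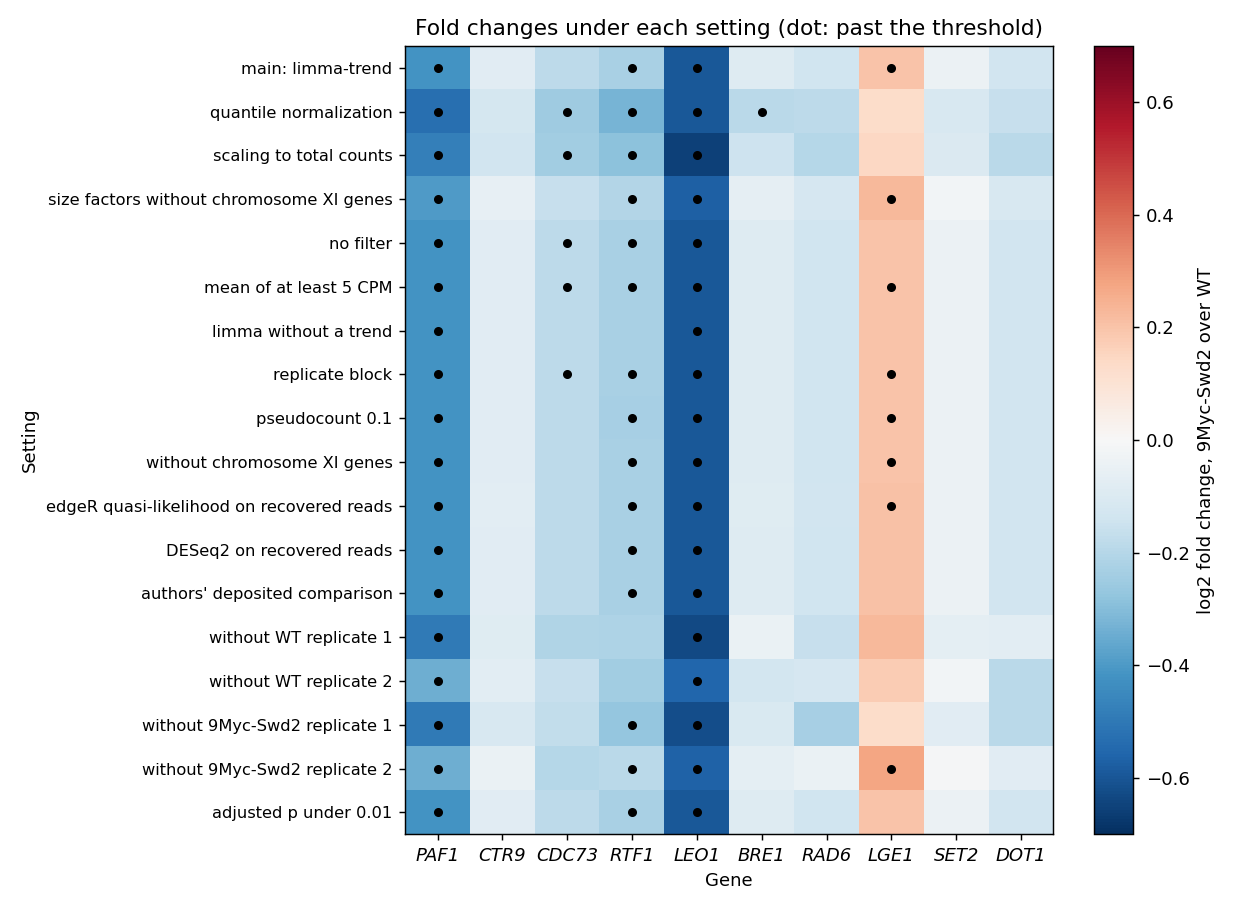
Log2 fold change (colour, blue lower and red higher in 9Myc-Swd2) of the 10 genes (columns) under the main test and 17 alternative settings (lines), with a black dot where the gene passed the threshold. LEO1 and PAF1 carry a dot throughout, RTF1 under 14 alternatives, LGE1 under 7, CDC73 under 5 and BRE1 under 1.

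Genes that work before, beside or after these 10 were taken from 9 lists of 53 genes in all. Of these, 14 were higher, 13 lower and 26 did not pass, which is 50.9% called. Over all genes tested 43.7% were called (22.3% higher and 21.4% lower), and the counts of single lists below are to be read beside those shares. The 4 list members on chromosome XI (SWD2, CTK1, ELF1 and SIR1) all rose, and off that chromosome 10 of 49 rose and 13 fell. Of all 6161 genes tested off it, 1138 rose and 1391 fell. Median log2 fold changes of the lists lay between -0.41 (histone H2B genes) and 0.27 (SIR genes).

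Among the genes that remove ubiquitin from H2B, 2 of 5 rose and 1 fell. UBP8 and SGF11 did not pass (log2 fold changes 0.06 and -0.24). SUS1, a subunit of the SAGA deubiquitinating module, fell from 354 ± 0.855 to 278 ± 32.7 normalized counts, and SGF73, which anchors that module, rose from 817 ± 56.4 to 1008 ± 165. UBP10, a further H2B deubiquitinase, rose from 1850.3 ± 88.9 to 2105 ± 142. These 3 calls were each lost in at least 2 of the 4 fits that left out a library, with limma adjusted p up to 0.103, 0.251 and 0.337 in that order. Both genes of histone H2B fell, HTB1 from 3282 ± 90.7 to 2693 ± 161 and HTB2 from 4722 ± 141 to 3274 ± 103; the copies are near-identical, so how reads were split between them is uncertain. HTB1 did not pass without WT 2 (limma adjusted p = 0.0577).

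Of 4 genes for other ligases and partners of Rad6, 2 rose and 0 fell. UBR1, the ligase of the N-degron pathway, rose from 1692 ± 115 to 2201 ± 11.3 normalized counts (log2 fold change 0.38 ± 0.07 SE, 0.000266 as the limma-trend adjusted p). UBR2, which acts with Mub1 on the proteasome gene activator Rpn4, rose from 1139.6 ± 91.4 to 1455 ± 126 and did not pass without WT 2 (limma adjusted p = 0.0576). RAD18 and MUB1 had log2 fold changes of -0.03 and 0.01. RAD6 itself was at 547 ± 12.7 and 497 ± 44.4.

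Of 8 COMPASS genes 2 rose, SWD2 (1.58) and the methyltransferase gene SET1 (0.30), and 2 fell, SDC1 (-0.41) and SPP1 (-0.32), in log2 fold changes. SPP1 did not pass without WT 2 (limma adjusted p = 0.110). Of 4 histone demethylase genes RPH1, which acts on the mark made by Set2, rose by 0.40 on the log2 scale (adjusted p from limma-trend = 0.000707), and the others did not pass. In the list of 8 genes for Set2 pathway readers, the Rpd3S deacetylase and Isw1b, 4 fell and 2 rose. RPD3, the deacetylase, fell from 1436 ± 60.1 to 879 ± 17.3 (log2 fold change -0.71 ± 0.07 SE, 3.05e-07 as the limma-trend adjusted p). EAF3, whose chromodomain binds methylated histone H3, and UME1 fell by 0.28 and 0.27 on the log2 scale, while the scaffold gene SIN3 had a log2 fold change of 0.30 and rose. EAF3 and SIN3 did not pass without WT 2 (limma adjusted p = 0.0511 and 0.0916). UME1 did not pass without WT 1 or without WT 2 (limma adjusted p up to 0.133).

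Of 10 genes for elongation factors and histone chaperones, 4 fell and 1, ELF1 on chromosome XI, rose (0.56). SPN1, a partner of Spt6, fell from 1772 ± 35.1 to 1370.3 ± 2.46 normalized counts, the remodeller gene CHD1 from 1797 ± 42.2 to 1477 ± 13.1, and POB3, a subunit of the histone chaperone FACT, from 1537 ± 52.2 to 1318 ± 13.9. POB3 did not pass without WT 1 or without WT 2 (limma adjusted p up to 0.169). Of 8 kinase genes that act on the polymerase and its elongation factors 1 passed, CTK1 on chromosome XI, which rose by a log2 fold change of 1.12 ± 0.08. SGV1 and BUR2, the kinase and cyclin whose activity recruits the Paf1 complex, had log2 fold changes of 0.14 and 0.05. Of 4 SIR genes, whose silencing depends on Dot1, 3 rose: SIR1 on chromosome XI (0.77), SIR2 (0.36) and SIR4 (0.18). SIR2 and SIR4 each failed to pass in 3 of the 4 fits that left out a library (limma adjusted p up to 0.259 and 0.266).

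**Figure D5:**
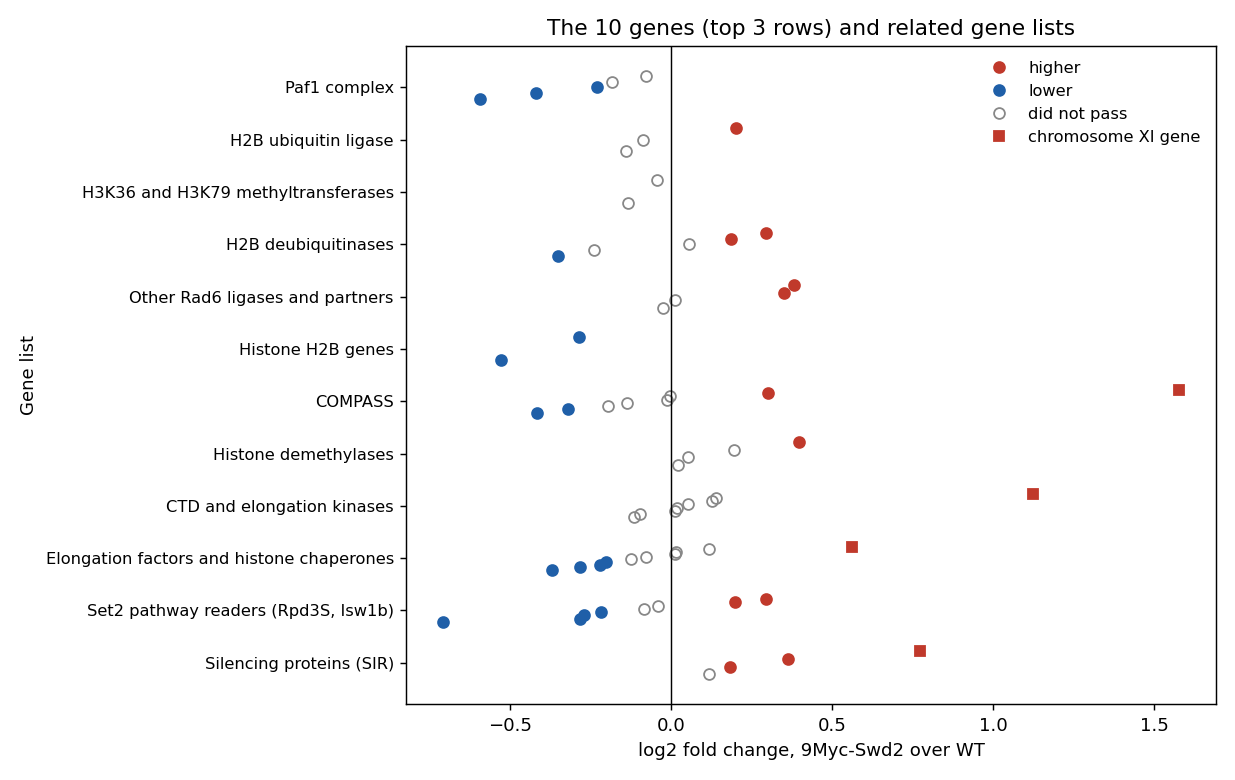
Log2 fold change, 9Myc-Swd2 over WT, of each gene in the 3 groups that make up the 10 genes (top) and in 9 related lists, filled red (higher) or blue (lower) where the gene passed and open grey where it did not, with squares for chromosome XI. The squares, SWD2 at 1.58 among them, lie at the right of their lists, and RPD3 at -0.71 is the lowest point.

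The genes next to the 10 on either side moved in both directions. No protein-coding neighbour overlapped a member in RefSeq, with gaps of 106 to 1773 bases. Of 20 neighbours, 3 rose, 4 fell and 13 did not pass, where 22.3% of all genes tested rose and 21.4% fell. UBP2, a deubiquitinase gene that ends 253 bases upstream of LEO1, rose from 1947 ± 51.4 to 2234 ± 59.1 normalized counts while LEO1 fell. TAD1, a tRNA deaminase gene 132 bases downstream of RTF1, was at 558 ± 19.0 in WT and fell to 349 ± 23.4 in 9Myc-Swd2 (log2 fold change -0.68 ± 0.09, against -0.23 for RTF1). The 2 neighbours of PAF1 (DPB3 and SAF1) and the 2 of LGE1 (LCL1 and LEE1) did not pass. YLR419W, which starts 332 bases from CDC73 on the other strand, and AHK1, likewise next to BRE1, rose by log2 fold changes of 0.38 and 0.22. NOP8 next to CTR9, GEP7 next to RAD6 and RPL31A next to BRE1 fell, by 0.21, 0.40 and 0.43 on the log2 scale.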

How the data were processed

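The deposited table lists 6697 genes. For each of 4 libraries it gives a normalized signal: the authors' read counts divided by 1 size factor per library. In each library 100% of the values were a whole number of steps (tolerance 1e-06 steps), which gave back whole reads; the step of 9Myc-Swd2 2 (1.01) is close to 1, and tests on the recovered reads serve only as alternatives. The table also holds the authors' log2 fold changes with standard errors, a Wald score, p-values and adjusted p-values, and log10 group means (not used), per the file headers. The tool bcl2fastq 1.8.4 and the build sacCer3 are named, per the submitters' processing notes, and the kit was directional, per the labels' protocols. For the aligner, the counter and its strand setting, nothing is given in the sources used here.

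Limma 3.58.1 with a trend was fitted to log2(value + 1), with group as its sole term, for 6503 genes whose mean was at least 1; adding 1 understates changes of low genes. The tests are two-sided, adjusted by Benjamini-Hochberg over all genes tested, with a threshold of 0.05. Counting error limits the genes with the fewest reads most. Alternatives used edgeR 4.0.16, DESeq2 1.42.0 and the settings in the closing section. The fits were tested on simulated data. Positions and sequences come from RefSeq, assembly R64, which sacCer3 names; coding length excludes untranslated sequence. The members and lists were chosen with earlier results of these data known. All 10 members are named, SWD2 as the check, at most 4 called genes with the smallest p per list, and called neighbours; genes named without a call were chosen after their values were seen. No list was tested as a set.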

Additional observations from a re-analysis of the deposited data

How the results depend on the processing

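None of the 170 values of the 10 genes under the 17 alternatives changed direction. Changing only the genes fitted, the trend, the replicate block or the threshold leaves the fold change as it was. No reversal was possible under those settings, for these genes or for the list genes below. Of the 170 values, 151 kept their side of the threshold, 13 lost it and 6 passed where the main test had not. For the 24 named genes of the related lists, 333 of 404 values kept their side, 71 lost the call and 0 changed direction; 9 genes passed under every alternative run on them (HTB2, CHD1, UBR1, SWD2, CTK1, ELF1, SIR1, RPD3 and SPN1).

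The main test called 4 of the 10 genes, 27 of the 53 list genes and 2841 of all genes. Limma without a trend called 2, 14 and 1866. With no filter 15 list genes and 1797 of all genes were called. DESeq2 and the authors' deposited comparison gave near-identical fold changes and are not separate checks. Each called 17 list genes, as did a threshold of 0.01. The cause of these lower counts was not tested. Leaving out 1 library gave 2 to 4 of the 10 genes, 12 to 28 list genes and 1777 to 3035 of all genes, the lowest without WT 2 (2 of the 10 genes also without WT 1), where 3 libraries remain. Of all calls 1448 were higher and 1393 lower, and 1185 and 1721 (40.8% higher) with libraries scaled to total counts.

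The labels share replicate numbers, but nothing says that a number marks a shared culture or day. Deviations of same-numbered libraries from their group means had r = 0.166 across 5860 genes, which are not independent replicates. With the replicate block 5 of the 10 genes (CDC73 in addition, limma adjusted p = 0.0305), 27 list genes and 3185 of all genes were called.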

Other observations

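By the Euclidean distance between the 4 library values of each gene (log2, centred on the gene's mean), the gene nearest to LEO1 among 5859 genes of at least 5 CPM was CIS3, a cell wall protein gene (4916 normalized counts in WT and 3261 in 9Myc-Swd2, means). The nearest to PAF1 was RPP0, a ribosomal stalk protein gene (8433 and 6329), and the nearest to RTF1 was RRP43, an exosome subunit gene (1098 and 947). The nearest to LGE1 was IOC2, a subunit gene of Isw1b (1324 and 1523). Within a distance of 0.1 there were 60 genes for LEO1, 54 for PAF1, 336 for RTF1 and 327 for LGE1, so a nearest gene over 4 libraries is one of many.

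YJL169W, numbered next to SET2 in the table, has no RefSeq record, and whether it overlaps SET2 was not tested. It was read at 16.2 and 30.1 normalized counts in WT and at 10.6 and 23.2 in 9Myc-Swd2, far below SET2 in each library.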
